A study of Mus musculus with 7 samples.

Results

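The genes described here encode 7 subunits of the GABA-A receptor: Gabra2, Gabra4 and Gabra5 (alpha subunits), Gabrb1 and Gabrb2 (beta subunits), Gabrg1 (a gamma subunit) and Gabrd (the delta subunit). They are 7 of 21883 protein-coding genes of the gene table, and the other 12 subunit genes of the family are used for comparison. They were chosen by name, with earlier results of these data known. A peak was assigned to a gene when it overlapped the gene's span or the 10 kb on either side of it. Binding of Fos was measured by chromatin immunoprecipitation and sequencing (ChIP-seq) with a monoclonal antibody on bulk hippocampus of wild-type C57BL/6J mice aged 2 months. One group of 3 libraries came from mice given saline. The other group of 3 libraries came from mice given kainic acid, a glutamate receptor agonist that provokes seizures, in 2 intraperitoneal injections of 10 mg/kg, 30 min apart. Of the kainic acid mice, those with seizures of level 4 were taken 1 hour after the first injection. Animals per library, and any link between same-numbered libraries, are not stated in the labels, so p-values measure only the spread between these libraries, which may be technical.

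GABA-A receptors are chloride channels that open when GABA binds, and they carry most fast inhibition in the brain. Each receptor is a ring of several subunits, and the subunits it holds set where it sits and what drugs it answers to. Synaptic currents are carried mostly by receptors with a gamma subunit, but not every such receptor sits at a synapse. Receptors with the delta subunit, in the hippocampus mainly together with alpha4 in dentate granule cells, mediate steady currents outside synapses. Alpha5 is abundant in hippocampal pyramidal cells. Most subunit genes lie in clusters, and Gabrg1, Gabra2, Gabra4 and Gabrb1 lie side by side on chromosome 5 in the mouse. Fos is a subunit of AP-1, a transcription factor induced in neurons by strong activity, which binds the sequence TGANTCA.

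Within this cluster Gabra2 is the sole member with a kainic acid region over a promoter in the table used, and its neighbour Gabrg1 had no peak in any list, so the promoters of both are shown. Both are RefSeq sequences of GRCm38.p6, the same assembly as mm10, and run from 250 bases before to 50 bases after the start of the gene. The Gabra2 promoter is chr5:71095800-71096099 and that of Gabrg1 is chr5:70842568-70842867, both on the minus strand and written 5′ to 3′. Capitals mark the 97 bases that lie under the kainic acid region.
Gabra2 promoter: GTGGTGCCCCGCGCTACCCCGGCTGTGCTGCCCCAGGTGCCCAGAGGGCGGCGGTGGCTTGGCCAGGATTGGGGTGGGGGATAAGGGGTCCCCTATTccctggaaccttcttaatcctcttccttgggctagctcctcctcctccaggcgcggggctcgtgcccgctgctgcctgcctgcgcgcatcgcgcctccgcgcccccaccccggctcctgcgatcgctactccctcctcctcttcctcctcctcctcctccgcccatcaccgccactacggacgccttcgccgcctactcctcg
Gabrg1 promoter: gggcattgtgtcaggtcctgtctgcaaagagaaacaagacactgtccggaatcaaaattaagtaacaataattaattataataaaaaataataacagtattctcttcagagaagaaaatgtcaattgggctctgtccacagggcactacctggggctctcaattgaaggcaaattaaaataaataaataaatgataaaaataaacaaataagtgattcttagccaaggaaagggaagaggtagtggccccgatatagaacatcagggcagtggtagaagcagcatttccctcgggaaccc

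The Gabra2 window holds 25 CG pairs and is 70.0% G or C, and the Gabrg1 window holds 3 CG pairs and is 38.3% G or C. The median over all 32851 promoter windows was 52.7% G or C. The table gave 9 windows for 6 of the 7 members. On either strand, 0 of these 9 windows held the AP-1 motif TGANTCA, which 7.81% of all windows and 23.3% of the 1535 windows under a kainic acid region held. Likewise 0 of 9 held the cyclic AMP response element TGACGTCA, which 1.79% of all windows and 3.71% of those under a kainic acid region held. Each motif reads the same on both strands, and a match to one cannot overlap a match to the other. Sequence of the regions away from promoters was not used here.

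The lists of kainic acid replicates 1, 2 and 3 held 15009, 63197 and 29650 peaks, and those of saline replicates 1, 2 and 3 held 7, 3277 and 2 peaks. Peaks of the kainic acid lists and of saline replicate 2 had a −log10 q of at least 1.35 to 1.38. Fold, −log10 p and −log10 q are the authors' own values, each relative to the local background of 1 library, so they served only to rank or filter peaks within a list. Absence from a list means that no peak was called, and a site without a call may still be bound. Read totals were not used here, but the reads over each summit were recovered for 101 of 101 peaks tried, 1 per list and region, by solving for them from the fold and the p that the authors deposited. Among regions in all 3 kainic acid lists they ran from 16 to 57 reads. Tissue and cell type could not be checked on marker genes, since peak lists carry no expression.

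The first comparison asks how Fos peaks at the subunit genes differed between kainic acid and saline. Near the 7 genes together there were 26, 70 and 46 peaks in kainic acid replicates 1, 2 and 3, and 0, 0 and 0 in the saline replicates, with a peak near 2 members counted once. Every kainic acid library thus lay above every saline library. The mean log10(number + 1) was 1.65 ± 0.211 (SD, n = 3) with kainic acid and 0 with saline (n = 3), a difference of 1.65. In a two-sided exact permutation test p was 0.1, and a design of 3 against 3 cannot go lower. The lists of saline replicates 1 and 3 held 7 and 2 peaks in all, so their counts of 0 say little about these genes. The members were also chosen with earlier results of these data known. This p is therefore no support for a difference particular to the members. In bulk tissue, more cells with Fos at a site and more Fos per cell cannot be told apart.

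Taken as a share of each list, member peaks made up 0.173%, 0.111% and 0.155% of kainic acid replicates 1, 2 and 3. The 0 of 3277 peaks in saline replicate 2 allows a share of up to 0.0915%, for counting error only, which lies below all 3 kainic acid shares. Of these 3277 peaks 3093 lay within 10 kb of protein-coding genes, and the members make up 0.104% of that sequence. The limit rests on saline replicate 2 alone and on members chosen with earlier results known. It is therefore no support for a difference particular to the members. For saline replicates 1 and 3, with 7 and 2 peaks, a count of 0 sets no useful limit. By gene, 6 of the 7 members had more peaks in each kainic acid list than in any saline list, all but Gabrg1. Over all protein-coding genes this held for 20.7%, a share that was not split by gene length. Of those 21883 genes 16939 span under 50 kb, and among the members only Gabrd does, so the 2 shares are not matched. A saline replicate 2 peak lay near 0 of the 7 members, against 17.0% of protein-coding genes, and by length against 15.3% under 50 kb, 23.4% at 50 to 100 kb, 23.2% at 100 to 200 kb and 20.4% at 200 kb and over. With 7 genes a count of 0 is not far from these shares.

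**Figure D1:**
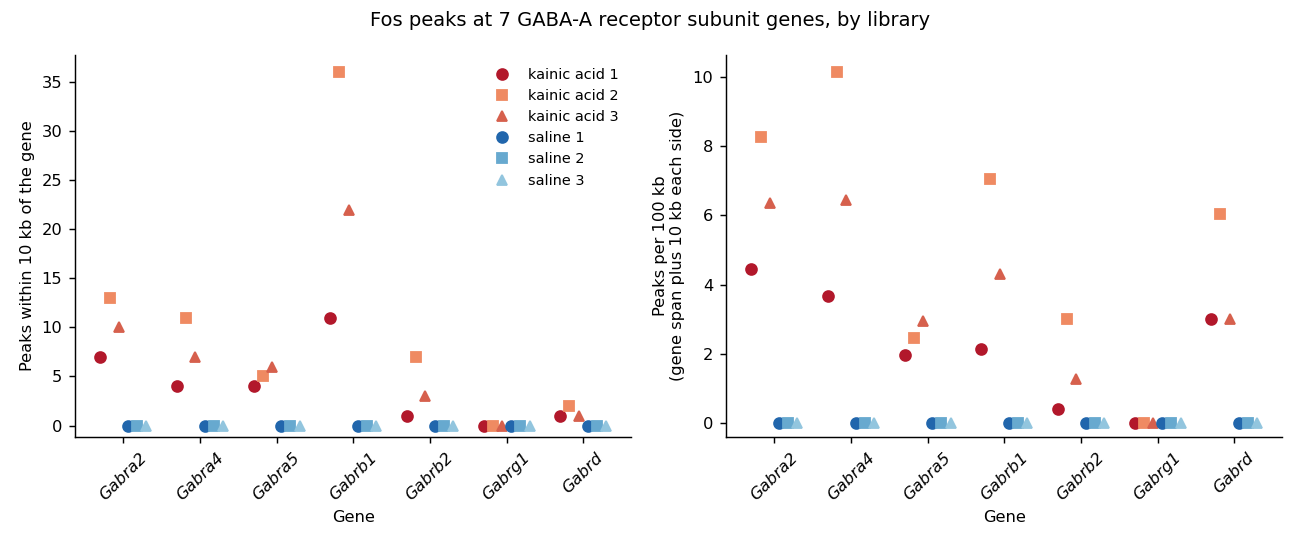
Peaks within 10 kb of each gene (left, number of peaks) and per 100 kb of its span plus 10 kb on each side (right), with 1 point per library. Gabrb1 had 11, 36 and 22 peaks in kainic acid replicates 1, 2 and 3, Gabrg1 had 0, and all saline points lie at 0.

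To ask which sites recurred, peaks that overlapped by 1 bp or more in any of the lists were joined into one region. A region is called a kainic acid region here when 2 or 3 of the kainic acid lists have a peak in it. There were 40 near the members, and 21 of these were found by every kainic acid library and 19 by exactly 2. A further 37 regions were in 1 kainic acid list, 28 of them in replicate 2, the longest list. Of the 77 regions with any kainic acid peak, 51.9% were thus in at least 2 lists, against 40.3% over the whole genome. None of the 40 had a saline peak, and of all 26862 kainic acid regions 2.01% had one. Of the 19 regions in exactly 2 lists, 16 (84.2%) came from replicates 2 and 3, 3 (15.8%) from replicates 1 and 2 and 0 from replicates 1 and 3. Over all 14925 such regions the shares were 87.9%, 10.5% and 1.61%, so the members' split is close to the background. Without kainic acid replicate 2 there were 21 regions near the members, and without replicate 3 there were 24.

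A kainic acid region lay near 6 of the 7 members, against 40.0% of all protein-coding genes. Long genes hold more regions, however, and by length the share of genes with one was 31.2% under 50 kb (the class of Gabrd), 58.9% at 50 to 100 kb (Gabra4 and Gabrg1), 76.8% at 100 to 200 kb (Gabra2 and Gabra5) and 88.7% at 200 kb and over (Gabrb1 and Gabrb2). Having a region is therefore close to the background for the long members, and the number per 100 kb says more. The territory of the members, 1338 kb in all, held 2.99 regions per 100 kb, against 1.55 over the territory of all protein-coding genes. A region in all 3 lists lay near the same 6 members, against 23.9% of all genes, a share that was not split by length.

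**Figure D2:**
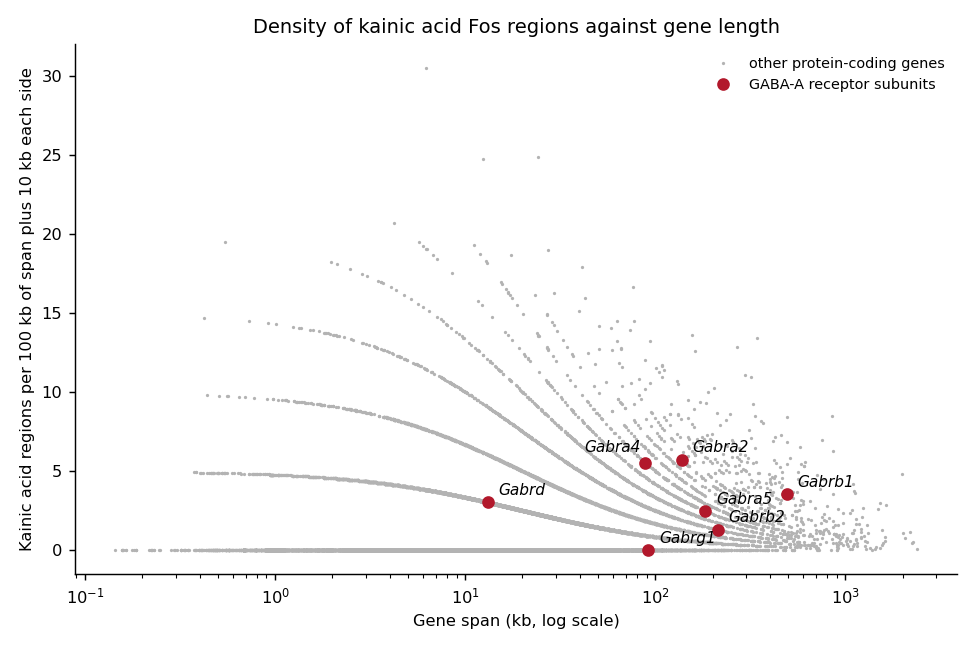
Kainic acid regions per 100 kb of gene span plus 10 kb on each side (vertical axis) against gene span in kb (horizontal axis, log scale), with 1 point per protein-coding gene and the 7 members in red. The bands are genes with the same whole number of regions. Gabra2 and Gabra4 lie at 5.72 and 5.53 regions per 100 kb, Gabrb2 at 1.29 and Gabrg1 at 0.

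Of the 7 members, the alpha subunit genes Gabra2 and Gabra4 had the most regions per 100 kb. Gabra2, whose product is common at synapses of forebrain neurons, spans chromosome 5, 70958392 to 71095849 (137 kb). It had 7, 13 and 10 peaks in kainic acid replicates 1, 2 and 3, which is 6.35 ± 1.91 peaks per 100 kb (SD, n = 3), and 0 in each saline library. Its 9 kainic acid regions, 6 of them in all 3 lists, amount to 5.72 per 100 kb. In genes of 100 to 200 kb the median was 1.24 per 100 kb, and 94.2% of these genes had fewer.

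The strongest Gabra2 region, by mean rank of fold, was chromosome 5, 71061383 to 71062403, inside the gene and 33919 bp downstream of its start. The fold there was 6.02, 12.2 and 9.80 in kainic acid replicates 1, 2 and 3, over 28, 47 and 52 reads at the summit. On a percentile rank in which 0 is the highest fold of a list, these stand at 15.6, 2.64 and 1.99, a mean of 6.73 ± 7.65 (SD, n = 3). Replicate 1 ranked it lowest. Its summits lay within 213 bp of each other in the 3 libraries.

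Regions ran along the Gabra2 gene from near its far end to just before its start. The region over the promoter shown above, chromosome 5, 71096003 to 71096723, was in all 3 kainic acid lists, and its mean summit lay 513 bp upstream of the start. Its fold was 2.98, 7.63 and 4.72 in replicates 1, 2 and 3, and its percentile ranks of 95.9, 12.4 and 30.7 differed widely, with replicate 1 near the bottom of its list. A region 17063 bp downstream of the start was uneven in another way: replicate 2 ranked it at 6.25 and replicates 1 and 3 at 82.0 and 84.9.

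Gabra4, the alpha subunit that pairs with delta in dentate granule cells, spans chromosome 5, 71569734 to 71658308 (88.6 kb). It had 4, 11 and 7 peaks in kainic acid replicates 1, 2 and 3, 6.75 ± 3.23 per 100 kb (SD, n = 3), and 0 in each saline library. Of its 6 kainic acid regions, 4 were in all 3 lists. Its 5.53 regions per 100 kb compare with a median of 1.06 in genes of 50 to 100 kb, of which 94.6% had fewer.

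By mean rank over the lists with a call, the best Gabra4 region was chromosome 5, 71565202 to 71565825, which lies outside the gene, 3.91 kb beyond its far end. It was called in replicates 2 and 3 but not in replicate 1, at percentile ranks of 31.1 and 19.8, and it comes first only because the missing list is left out of its mean. Next came a region inside the gene, 4163 bp downstream of its start (chromosome 5, 71653449 to 71654492), with a fold of 4.03, 10.1 and 6.16 and ranks of 63.8, 5.19 and 12.6. Replicates 2 and 3 ranked this one above the region outside the gene, and replicate 1 ranked it low.

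Gabra5, the alpha subunit of hippocampal pyramidal cells, spans chromosome 7, 57407669 to 57591016 (183 kb). Its 4, 5 and 6 peaks in kainic acid replicates 1, 2 and 3 (2.46 ± 0.492 per 100 kb, SD, n = 3) were the most even of the 5 members with more than 2 peaks in any list, and it had 0 in each saline library. Of its 5 kainic acid regions 4 were in all 3 lists. At 2.46 regions per 100 kb it lay above the median of 1.24 for its length class but below the upper quartile of 2.54.

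By fold, Gabra5 held the member region of best mean rank, chromosome 7, 57529305 to 57530378, inside the span and 19787 bp upstream of the start in the promoter table. The fold was 7.20, 14.8 and 9.34 in kainic acid replicates 1, 2 and 3, over 29, 54 and 46 reads. Its ranks of 7.69, 1.29 and 2.40 (mean 3.79 ± 3.42, SD, n = 3) put it in the top 10% of every kainic acid list, and the summits lay within 64 bp. A second region 7086 bp downstream of that start (chromosome 7, 57502664 to 57503217) ranked at 25.8, 7.98 and 8.09. The 2 regions counted from outside the span of Gabra5, on its high side, ranked low in replicate 1, at 92.2 and 91.4.

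**Figure D3:**
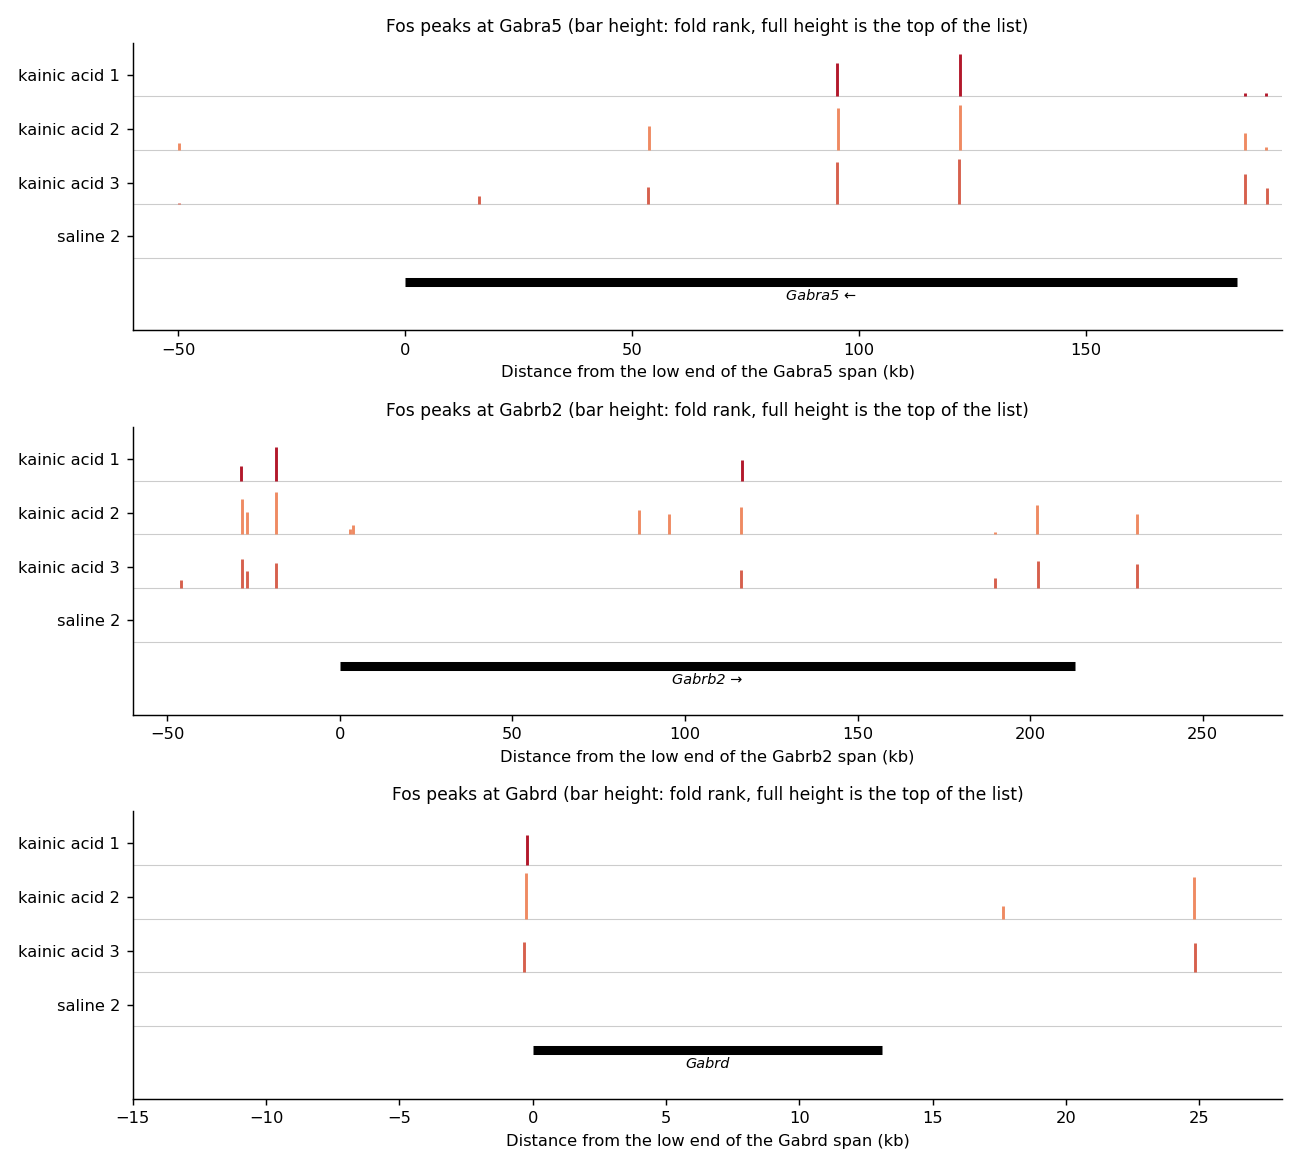
Summits of Fos peaks along Gabra5, Gabrb2 and Gabrd, with the distance from the low end of the gene span in kb on the horizontal axis and 1 row per library. Bar height is the rank of the fold in its list, full height being the highest fold, black bars are gene spans and arrows give the direction of transcription where the promoter table has it. Saline replicate 2 had no peak in these windows, and the 9 peaks of the other saline lists lie elsewhere. The tall bars inside Gabra5 are the regions at ranks of 3.79 and 14.0.

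The beta subunits, which the common GABA-A receptors need, include the member with the most regions. Gabrb1 is the longest member at 492 kb (chromosome 5, 71657921 to 72149572). It had 11, 36 and 22 peaks in kainic acid replicates 1, 2 and 3 (4.50 ± 2.45 per 100 kb, SD, n = 3) and 0 in each saline library. Its 18 kainic acid regions were the most of any member, but 7 were in all 3 lists and 11 in exactly 2. Leaving out kainic acid replicate 2 reduced the count to 7, and leaving out replicate 3 reduced it to 9. Per 100 kb it had 3.52 regions, above 84.4% of genes of 200 kb and over, whose median was 1.18.

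By mean rank the best region counted for Gabrb1 was chromosome 5, 72158432 to 72159394, which lies 8.86 kb beyond the gene and inside Commd8, so the assignment to Gabrb1 rests on the reach of 10 kb. It ranked at 10.5, 5.17 and 5.24 in kainic acid replicates 1, 2 and 3. Almost level with it was chromosome 5, 71760499 to 71762074, inside Gabrb1 and 61471 bp downstream of its second annotated start. The fold there was 8.00, 8.52 and 7.06 over 56, 57 and 53 reads, and the ranks were 4.88, 9.03 and 7.71 (mean 7.21 ± 2.12, SD, n = 3). Its summits lay within 22 bp, and it was the member region with the most reads in replicate 1. Ranked by −log10 q in place of fold it was the first of all member regions, at a mean of 3.86, ahead of the Gabra5 region at 5.68.

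Gabrb2, a beta subunit widespread in the brain, spans chromosome 11, 42419515 to 42632591 (213 kb). It had 1, 7 and 3 peaks in kainic acid replicates 1, 2 and 3 (1.57 ± 1.31 per 100 kb, SD, n = 3), and 0 in each saline library. Of its 3 kainic acid regions 1 was in all 3 lists. This was chromosome 11, 42535400 to 42536243, 114552 bp downstream of the nearest start, with ranks of 54.1, 39.9 and 60.3. The region of best mean rank, chromosome 11, 42621320 to 42621897, ranked at 35.3 and 41.3 in replicates 2 and 3. With 1.29 regions per 100 kb Gabrb2 lay near the median of its length class, 1.18, and 1 region was left without replicate 2 and likewise without replicate 3. More regions lay just outside the reach: one in all 3 lists stood 18.1 kb below the gene, and 7 regions were counted for Gabrb2 at a reach of 50 kb.

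The gamma and delta subunit genes held few sites or none. Gabrg1, a gamma subunit with a limited distribution in the brain, spans chromosome 5, 70751047 to 70842617 (91.6 kb) and had 0 peaks in each of the 6 lists. Of genes of 50 to 100 kb, 58.9% had a kainic acid region. The nearest kainic acid region above Gabrg1 was 125 kb away, inside Gabra2, and the nearest below it was 1043 kb away. The nearest peak of any single kainic acid list below it was at 249 kb. Between Gabrg1 and Gabra2, a gap of 116 kb held 0 regions, and the 474 kb between Gabra2 and Gabra4 held 5. How well reads can be placed in this stretch was not tested.

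**Figure D4:**
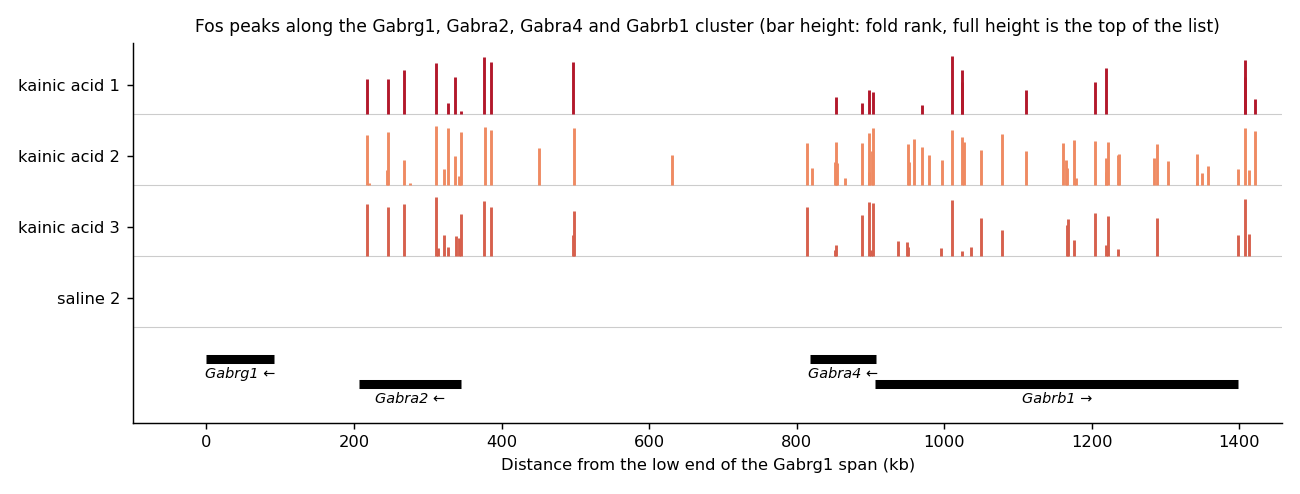
Summits of Fos peaks along the chromosome 5 cluster, with the distance from the low end of Gabrg1 in kb on the horizontal axis and 1 row per library. Bar height is the rank of the fold in its list, full height being the highest fold, black bars are gene spans and arrows give the direction of transcription. No bar lies over Gabrg1 or in the 125 kb up to the first Gabra2 region, and saline replicate 2 has none in the whole window.

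Gabra4 and Gabrb1 start head to head on opposite strands, and their spans overlap by 388 bp. Both share 2 kainic acid regions, so the sum over genes is 42 and the number of separate regions 40. The shared regions lie inside Gabra4, 4163 and 9827 bp from its start and 3776 and 9440 bp upstream of the first Gabrb1 start, and neither touches the 300 bases around either start. Which of these genes, if any, a shared region acts on was not tested.

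Gabrd encodes the delta subunit, typical of receptors outside synapses, and is the shortest member at 13.1 kb (chromosome 4, 155384979 to 155398098). It had 1, 2 and 1 peaks in kainic acid replicates 1, 2 and 3 and 0 in each saline library. Its single kainic acid region, chromosome 4, 155384305 to 155385090, was in all 3 lists and overlapped the low end of the gene. The fold was 4.80, 14.8 and 4.57 in replicates 1, 2 and 3, over 19, 54 and 22 reads, and the ranks were 35.9, 1.29 and 33.1. Replicate 2 thus set this site far higher than the other libraries. Just outside the reach, a region in 2 lists lay 11.5 kb beyond the other end of the gene.

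**Figure D5:**
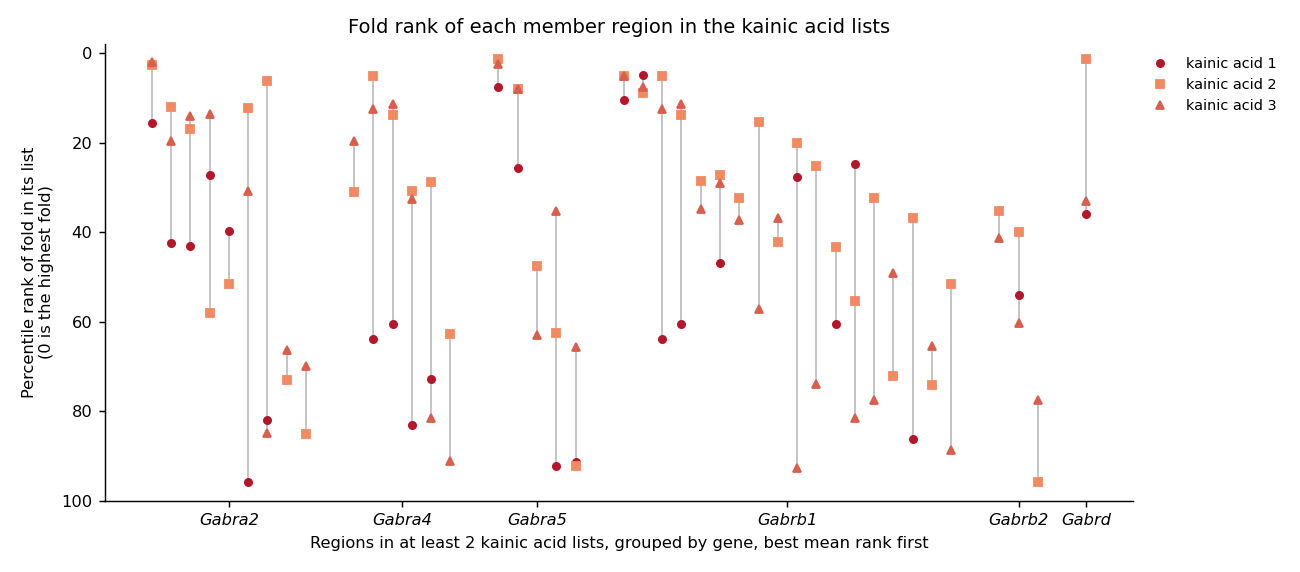
Percentile rank of the fold of each member region within its list (vertical axis, 0 at the top is the highest fold), with 1 column per region, grouped by gene, and 1 point per kainic acid library with a peak there. The 2 regions shared by Gabra4 and Gabrb1 are drawn under both genes. The first Gabra5 column, at 7.69, 1.29 and 2.40, has the best mean rank by fold, and the second Gabrb1 column, at 4.88, 9.03 and 7.71, has the smaller spread.

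Ranks over the 21 member regions in all 3 lists were not higher than usual for such regions. Their median percentile ranks were 43.1, 13.9 and 29.1 in kainic acid replicates 1, 2 and 3, against 42.4, 12.2 and 24.7 over all 11937 regions in all 3 lists. The members' ranks ran from 4.88 to 95.9 in replicate 1, from 1.29 to 92.3 in replicate 2 and from 1.99 to 92.6 in replicate 3. For the 16 regions of replicate 3 that were in exactly 2 lists the median was 64.2, against 60.1 over all such regions. The members thus stood apart in how many regions they held per 100 kb, and not in fold rank, and neither was tested.

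Most member regions lay away from starts of transcription. Of the 40 regions 35 overlapped the span of a member. For the 39 regions near a member with an annotated start, the median distance to the nearest start was 82680 bp, with 1 region within 1 kb (that of Gabra2) and 4 within 5 kb. Median width was 718 bp, against 686 bp over all kainic acid regions. Summits of the same region differed between libraries by a median of 102.5 bp.

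Of the 12 other subunit genes of the family, 5 had a kainic acid region, each of them at least 1 in all 3 lists, and 7 had none. This share is close to the 40.0% of all protein-coding genes. Gabrg3, a gamma subunit gene of 671 kb, had 3 regions (0.434 per 100 kb, with 2, 5 and 3 peaks in kainic acid replicates 1, 2 and 3). Gabra6, known from cerebellar granule cells, and Gabrr1, known from the retina, had 0 peaks in each of the 6 lists. The other 12 had a median of 0 regions per 100 kb (range 0 to 6.58) and the 7 members a median of 3.02 (range 0 to 5.72). Over all protein-coding genes the median was 0. These medians are not matched for length. The 7 other subunit genes without a region span 14.6 to 54.4 kb, while all members but Gabrd span at least 88.6 kb. Since the members were chosen with results known, this split of the family was not tested.

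Among 15 scaffold and partner genes of the inhibitory synapse, 11 had a kainic acid region and 4 had none, with a median of 3.01 per 100 kb. Plcl1, whose product binds the receptor and affects its trafficking, had 16 regions, and Nsf, which drives membrane fusion and receptor delivery, had 13. Gphn, the gene of the scaffold protein gephyrin, had 3 along 467 kb. A saline replicate 2 peak lay near 5 of these 15 genes, against 17.0% of all protein-coding genes, and this was not tested. Of 4 genes of the GABA-B receptor, the G protein-coupled receptor for GABA, 3 had a region: Gabbr2 had 14 and Gabbr1 had 4. Kctd8, an auxiliary subunit that lies on chromosome 5 like Gabrg1, had 0.

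The genes most like the average member were sought among 4938 other protein-coding genes of at least 50 kb, by the distance between log2(peaks per 100 kb + 0.1) over the 6 lists. The average took in Gabrg1, whose 0 in each list enters as 0.1 and lowers the kainic acid averages. The closest were Cacna2d1, a calcium channel subunit gene (distance 0.120), Spock3 (0.121) and Pard3 (0.147). Cacna2d1 had 6, 15 and 10 peaks in kainic acid replicates 1, 2 and 3 and 0 in each saline library, and 6 kainic acid regions along 440 kb. All genes share the same 6 libraries, so this likeness is a description only.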

How the data were processed

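Fos ChIP-seq peak lists of 6 libraries, 3 kainic acid and 3 saline, were analysed, each a separate replicate. The input library was not analysed here. Per the submitters' processing notes, the tools were Trim Galore 0.6.4, Bowtie2 2.3.4.3, MACS2 and deepTools 3.5.0, with build mm10, and the deposited peak names carry a mapping quality of 30. The cutoff, control and fragment length are not given in the sources used here. The authors deposited per peak a fold (a linear ratio to local background), a −log10 p, a −log10 q and a score, which is the −log10 q times 10, rounded down.

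Gene spans, starts and promoters came from RefSeq tables of GRCm38.p6, and all 7 members, 12 other subunits, 15 partners and 4 GABA-B genes matched by symbol. The gene table has no exons, so exonic and intronic sites were not separated. Reads at a summit (k) were solved from fold = (k + 1)/(background + 1) and the Poisson p, within 0.001 in −log10 p. Where a library had several peaks in a region, the one of highest fold was used. Merging, counting and solving were tested on simulated data. The comparison of groups used the exact permutation test over 20 assignments (Python 3.11.15, pandas 2.3.3, SciPy 1.17.1). All 7 members, their region of best mean rank and, per other list, genes with most or no regions were named by rule. Other regions and genes were named after their values were seen, and some genes that the rule names are not reported here. Members and lists were chosen with earlier results of these data known. Alternatives were −log10 q of at least 5 or 10, reaches of 0 and 50 kb, equal list lengths, other merging and list rules, and each library left out.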

Additional observations from a re-analysis of the deposited data

How the results depend on the processing

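The difference in log10(number of member peaks + 1) ran from 1.07 with −log10 q of at least 10 to 1.75 at a reach of 50 kb, and from 1.55 to 1.76 with one library left out. No p from 3 libraries against 3 can reach the usual threshold, and saline counts of 0 fix the sign, so neither says anything about stability. The replicate block left the difference at 1.65, with an exact permutation p of 0.25 from flipping signs, which is the minimum for 3 pairs. With saline at 0 throughout, pairing by number could not be checked. The 40 member regions became 26 at a −log10 q minimum of 5 and 10 at a minimum of 10, 17 with equal numbers of kainic acid peaks, 21 in all 3 lists and 77 in any list, and with one kainic acid library removed there were 21 to 37. These rules admit fewer or more peaks by construction. The density of 2.99 regions per 100 kb became 0.747 with −log10 q of at least 10, 1.27 with equal numbers and 5.75 in any list, and 1.57 to 2.76 with one library left out. The number of members with a region was 6 throughout, except 4 with −log10 q of at least 10, where Gabrb2 and Gabrd had none, and 5 with equal numbers, where Gabrb2 had none. Of 84 counts for single genes 26 moved by over 1.5 times, 18 to fewer and 8 to more. Gabrg1 had 0 regions in each. Ranking by −log10 q moved the region inside Commd8 from 6.97 to 10.2 and made the region inside Gabrb1, at 3.86, the best of that gene and of all members, while the best region of the other 5 genes stayed the same and moved by less than its spread. Short lists limit what saline can show: 2 of its lists hold under 10 peaks, and the reason was not tested. Motifs were not run on regions away from promoters, since their sequence was not used here.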
